A study of Homo sapiens with 12 samples.

Results

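Drug-tolerant expanded persisters (DTEP) of the HER2-positive breast cancer line BT474, taken after month 6 of lapatinib, were compared with the drug-tolerant persisters (DTP) of day 9. Every gene with a normalised read count of 1 or more in at least 3 of the 6 libraries of these groups was a member of the comparison, which gave 13263 of the 26485 genes in the table. The rule used no difference between the groups. The study followed BT474 cells, an established line with an amplified ERBB2 gene, through continuous lapatinib, which blocks the kinase activity of EGFR and HER2, and sequenced mRNA from 4 groups of 3 libraries. Control was day 0, DTP day 9, DTEP month 6 and LR, the long-term resistant cells, month 9. All 12 libraries carry the same labels for line, wild-type genotype and 1 µM lapatinib, and Control was read as the untreated start because its title gives day 0. According to the study, few cells were left on the plates when DTP were taken, the DTEP population had regrown under the drug, and the libraries of a group came from parallel plates that are called technical replicates. The p-values below therefore measure the spread between such plates of 1 line and not between independent derivations. The question of the comparison was what changes in the transcriptome between the state in which most cells have stopped dividing and the state in which the population grows again under the inhibitor.

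HER2 is a receptor tyrosine kinase that pairs with HER3 and drives the PI3K-AKT and RAS-ERK pathways in cells of this kind. When the kinase is blocked, cells that survive leave the cell cycle, and E2F and DREAM complexes then keep genes of DNA replication and mitosis silent. Transcripts of ERK feedback inhibitors such as DUSP6 and the Sprouty genes follow ERK activity closely, while luminal identity rests on GATA3, FOXA1 and the estrogen receptor ESR1.

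The 3 DTP libraries held 16383363 to 19233496 assigned reads and the 3 DTEP libraries 17784573 to 25030482, so that a count of 0 allowed a level of up to 0.124 to 0.173 normalised read counts (3 reads, counting error only). Within groups the libraries were not equally close. Pearson's r of the log2 values lay between 0.981 and 0.996 among DTP libraries and between 0.929 and 0.98 among DTEP libraries, and the median SD per gene was 0.17 in DTP and 0.33 in DTEP. DTEP replicate 3 stood apart from the other DTEP libraries: its r with the LR libraries was 0.969 to 0.986, against 0.907 to 0.928 for DTEP replicate 1 and 0.936 to 0.953 for DTEP replicate 2. Values without this library are given for some genes only, mainly where leaving it out changed a call. Other falls kept their calls but were smaller without it: TCN1 -3.53 against -5.17, KRT15 -3.21 against -4.36, ID3 -3.02 against -4.14, ESR1 -3.16 against -4.05 and CD44 -2.08 against -2.96. Some changes were larger without it, such as those of PIK3IP1 (-2.77 against -2.63) and DUSP6 (5.84 against 4.98). The label of a luminal HER2-positive line was compared with 12 defining markers. Of these, 0 were called higher and 6 lower, namely ERBB2, GRB7, KRT8, CDH1, ESR1 and PGR. The summed level of the 12 was 15662 to 17995 in DTP libraries and 5750 to 7531 in DTEP libraries. ERBB2 alone went from a mean of 8545 to 1627 and made up most of this difference. GATA3, FOXA1, SPDEF and EPCAM were present in every library and higher in DTEP, with log2 changes of 1.34, 1.36, 1.79 and 1.19. KRT18 and KRT19 changed by -1.17 and -1.04. All 6 of these changes were under the size threshold of 2 given below. Of 6 fibroblast, 5 leukocyte and 3 endothelial markers only COL1A1, LYZ, CD68 and VWF passed the filter, so the others could not be called. Of those tested 0 were called, with log2 changes of 0.85, -1.33, 0.18 and -1.35. Their limma adjusted p was 0.0066, 0.0034, 0.45 and 0.00032. The summed level of the fibroblast markers, nearly all of it COL1A1, was 48.1 to 59.3 in DTP and 79.9 to 121 in DTEP, that of the leukocyte markers 5.76 to 7.16 and 2.47 to 4.94, and that of the endothelial markers 2.19 to 2.61 and 0.165 to 0.431. CD3E, COL1A2 and DCN were at 0 reads in these 6 libraries. The basal markers KRT5 and KRT14 had at most 1 read in a library of these 2 groups, while TP63, a basal transcription factor, rose from 0.365, 0.839 and 1.15 to 5.79, 28.8 and 11.1. No genotype was read here, so whether all libraries hold the same line was not tested.

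A gene was called when its limma adjusted p was below 0.05 and its change exceeded 2 on the log2(value + 1) scale, which understates the change of genes with low levels. By this rule 1119 genes (8.44% of those tested) were higher in DTEP and 969 (7.31%) were lower. With the adjusted p alone, 4243 genes (32%) were higher and 3864 (29.1%) lower. All 3 DTEP libraries lay above all 3 DTP libraries in 4618 genes (34.8%) and below them in 4345 (32.8%), and among called genes this held for 1118 of the 1119 higher and 969 of the 969 lower ones. A call uses the same values, so the separation among called genes is no separate support. The shares of all genes tested are the background against which the counts of the gene lists below are to be read. The median change of all genes tested was 0.08. The called genes were far from the threshold in many cases, since 244 rose by more than 4 and 110 fell by more than 4 on the log2 scale.

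**Figure D1:**
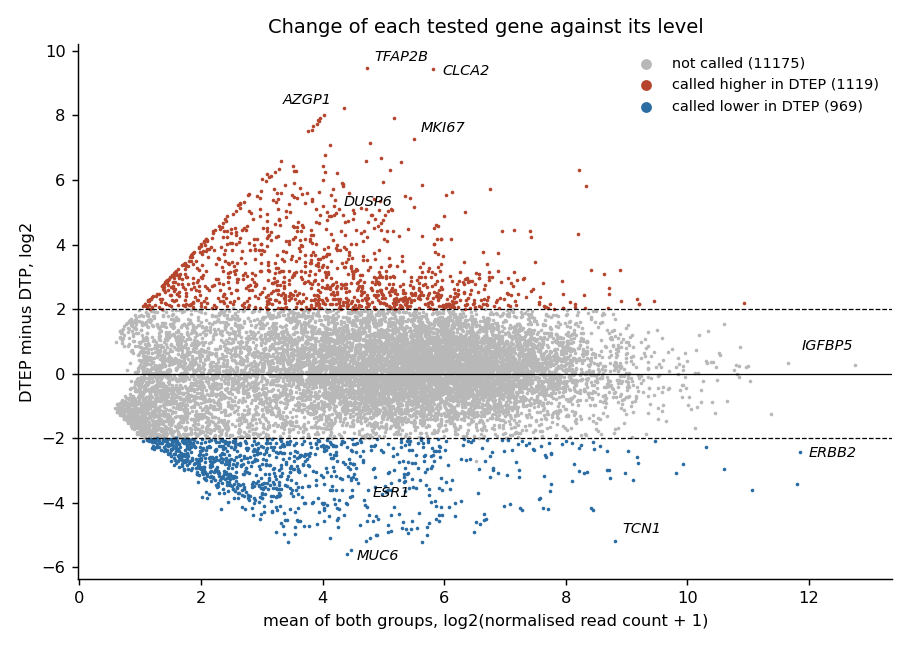
Change of each tested gene (DTEP minus DTP, log2 of the normalised read count plus 1, vertical axis) against the mean of both groups on the same scale (horizontal axis). Red points are the 1119 genes called higher, blue points the 969 called lower and grey points the others, with dashed lines at the size threshold of 2. TFAP2B and CLCA2 lie at the top with changes of 9.46 and 9.42, and ERBB2, at -2.42, is among the most abundant genes that fell.

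The mitotic genes rose almost as a whole. Of the 39 genes of the mitosis list, all of which were tested, 38 rose and 0 fell, with a median change of 4.68. The per-library median of the list was 1.95 to 2.11 on the log2 scale in DTP and 7.11, 7.15 and 6.55 in DTEP, against 6.15 to 6.21 in Control and 4.99, 5.30 and 5.66 in LR. DTP libraries were thus the low group, and DTEP medians lay above those of Control. MKI67, the proliferation antigen Ki-67, had 2.19, 2.32 and 3.63 normalised read counts in the 3 DTP libraries and 463, 604 and 622 in the 3 DTEP libraries (log2 change 7.26 ± 0.22 (SE), adjusted p = 1.3e-06). It was the member with the largest change, 208-fold by the group means. CCNB1, the cyclin that starts mitosis with CDK1, went from 9.5, 11.2 and 10.4 to 306, 258 and 128 (log2 change 4.26 ± 0.31 (SE), adjusted p = 2.81e-05), with DTEP replicate 3 the lowest of its group. PLK1, a mitotic kinase, went from 4.8, 4.1 and 3.46 to 198, 185 and 95.4, a change of 4.91 ± 0.30 (SE). The transcription factor FOXM1, which drives genes of the G2 and M phases, was at 4.44, 5.92 and 5.07 and then at 290.3, 308 and 234 (5.50 ± 0.19). TOP2A, the topoisomerase that untangles replicated DNA, rose by 4.52 ± 0.25, yet its DTEP values of 208, 269 and 361 remained below the Control values of 429, 423 and 404. AURKA, a kinase of the spindle poles, was the only member that was not called. It measured 54.1, 59.7 and 58.6 in DTP, 144, 121 and 61.5 in DTEP and 317, 315 and 316 in Control (log2 change 0.83 ± 0.30 (SE), adjusted p = 0.0429). AURKA lies on chromosome 20 in a stretch, described below, where 13 of 25 genes fell. Whether this position bears on its change was not tested.

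Genes of DNA replication followed the same direction with smaller changes. Of 45 S phase genes tested, 29 rose, 0 fell and the median change was 2.66. RRM2, a subunit of ribonucleotide reductase, went from 2.3, 4.1 and 2.94 to 562, 549 and 175 (log2 change 6.55 ± 0.44 (SE), adjusted p = 1.87e-05), and DTEP replicate 3 was the lowest of the DTEP libraries. E2F1, a transcription factor that activates S phase genes, rose from 4.12, 3.06 and 2.59 to 184, 219 and 76.4 (5.12 ± 0.39). CDC6, which loads the replicative helicase, was at 4.02, 4.74 and 5.47 in DTP and at 61, 73.4 and 26.4 in DTEP (3.14 ± 0.37), below its Control values of 123, 125 and 128. MCM2, a helicase subunit, measured 56.3, 56.3 and 47.7 and 281, 305 and 144 (log2 change 2.10 ± 0.29 (SE), adjusted p = 0.000444), and its change fell under the size threshold without DTEP replicate 1 or without DTEP replicate 2. The sliding clamp PCNA went from 68.3, 67.4 and 70.2 to 335, 327 and 149, a change of 1.87 that did not reach the size threshold although the groups did not overlap. Without DTEP replicate 3 it was 2.25 and PCNA was called. POLA1, the catalytic subunit of DNA polymerase alpha, was the one member with a negative change (63.8, 76.2 and 85.2 against 56.5, 54.9 and 40.5, -0.56 ± 0.20). Without DTEP replicate 3 the number of S phase genes called higher was 34 in place of 29.

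Among 20 tested genes of the G1 phase 7 rose and 2 fell (median 0.93). The retinoblastoma relative RBL1 had the largest change, from 1.98, 1.33 and 2.42 to 30.7, 42.2 and 42.4 (3.76 ± 0.25). CCNE2, a cyclin of S phase entry, rose from 5.22, 6.32 and 8.81 to 61.8, 98 and 58.9 (log2 change 3.23 ± 0.28 (SE), adjusted p = 5.28e-05). The groups did not overlap in either gene. CCND1, the main cyclin of this kind in luminal cells, had 206, 222 and 252 in DTP and 439.9, 429 and 229.5 in DTEP (log2 change 0.64 ± 0.27 (SE), adjusted p = 0.0706), and DTEP replicate 3 lay inside the DTP range. CDKN1A, which encodes the CDK inhibitor p21, went the other way, from 44.8, 42.7 and 40.2 to 21.3, 11.7 and 0.842 (log2 change -2.44 ± 0.79 (SE), adjusted p = 0.0278). This change of CDKN1A depended on DTEP replicate 3, as it was -1.37 and not called without it, and it also lost its call when any one DTP library was left out or when edgeR was used. CDKN1B, the inhibitor p27, measured 74.8, 82.5 and 99.1 and 135, 158 and 159 (0.82 ± 0.17), and CDKN1C, the inhibitor p57, 5.38, 6.17 and 5.13 and 2.82, 1.11 and 1.96 (-1.18 ± 0.25).

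**Figure D2:**
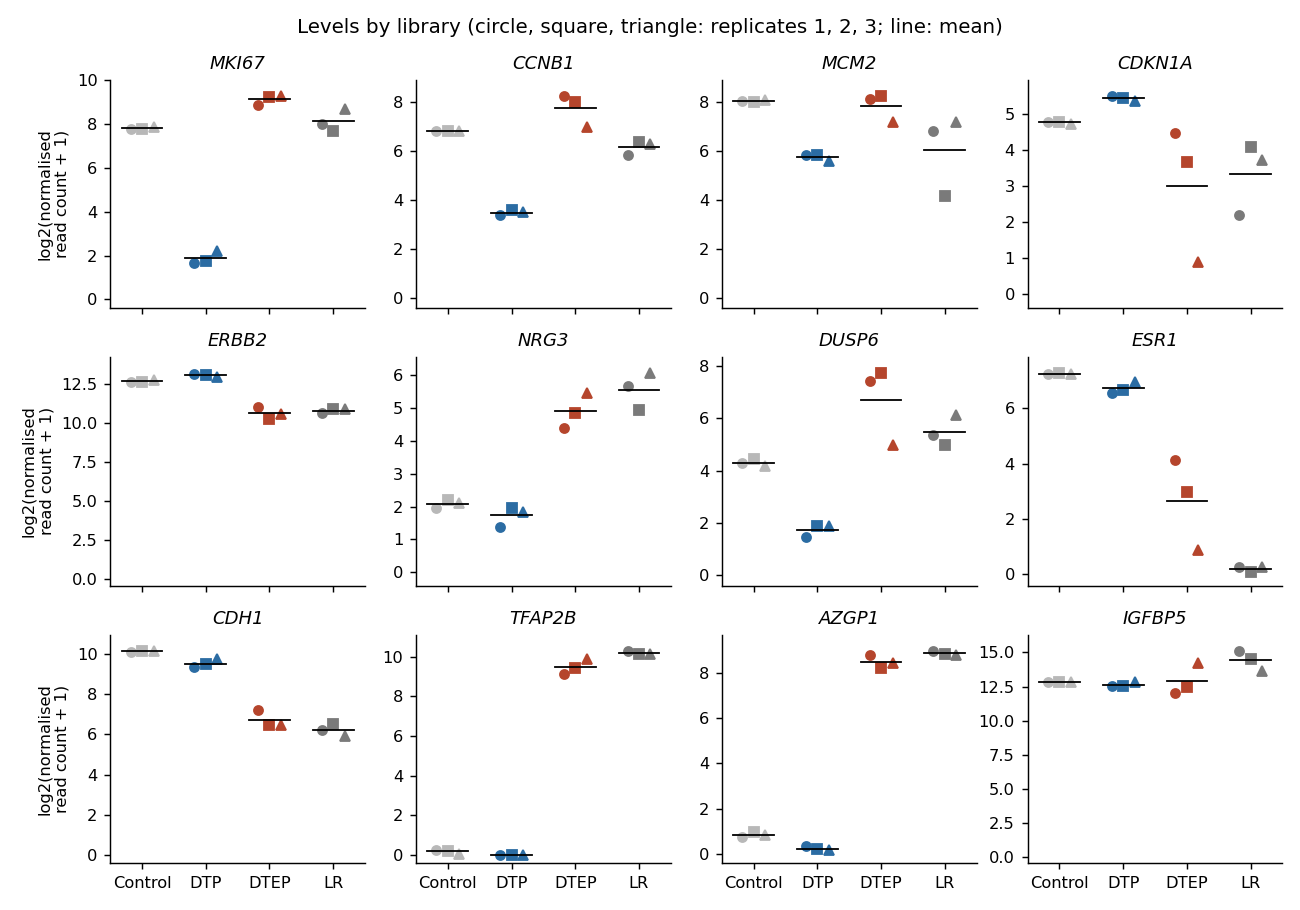
Levels of 12 genes in all 12 libraries (vertical axes, log2 of the normalised read count plus 1; horizontal axes, the groups Control, DTP, DTEP and LR; circles, squares and triangles are replicates 1, 2 and 3, and lines are group means). MKI67 and CCNB1 are low in DTP alone of the 4 groups, ESR1 and CDH1 step down in DTEP and LR, and TFAP2B and AZGP1 are near 0 in Control and DTP and high in DTEP and LR.

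Promoters of cell cycle genes are shown because the members of these lists moved together. They carry short motifs: E2F sites (TTTGGCGC, TTTCCCGC, TTTGCCGC or TTTCGCGC), the cell cycle homology region CHR (TTTGAA), which is bound by DREAM and MuvB complexes, and the CCAAT box (CCAAT), which is bound by NF-Y. These letters were searched on both strands in the 250 bases before the start site of the RefSeq promoters (GRCh38.p14). An E2F site was found in 15 of 38 S phase promoters (39.5%), in 2 of 33 mitosis promoters (6.06%) in 2.79% of all 27305 promoters and in 4.49% of the 10564 promoters of genes tested. The CHR was found in 18 of 33 mitosis promoters (54.5%), in 1 of 38 S phase promoters (2.63%) in 13.6% of all promoters and in 8.23% of those of genes tested. A CCAAT box stood in 25 of 33 mitosis promoters (75.8%), 22 of 38 S phase promoters (57.9%) 33% of all promoters and 35.3% of those of genes tested, and CHR and CCAAT box occurred together in 15 of the mitosis promoters (45.5%) against 4.85% of all and 3.44% of those tested. Among genes called higher 7.55% of 888 promoters held an E2F site and among genes called lower 1.77% of 733. The CHR was in 13% of the higher and 9.55% of the lower genes, both above the share of genes tested, and the CCAAT box in 42% and 27.1%. A match is a description of the sequence and no measurement of binding. The 150 bases before the start sites of 5 genes named above follow, in the direction of transcription, with matches to any of the motifs on either strand in capitals, so that an E2F site can appear as its reverse complement and the CCAAT box as ATTGG. In MKI67 the CHR nearest to the start overlaps the CCAAT box on the other strand by 1 base. The promoters of CDC6, CCNB1 and TOP2A are not printed and held CCAAT boxes but no CHR or E2F site in these bases. That of MCM2 held no match.
E2F1, chr20:33686386-33686535, minus strand: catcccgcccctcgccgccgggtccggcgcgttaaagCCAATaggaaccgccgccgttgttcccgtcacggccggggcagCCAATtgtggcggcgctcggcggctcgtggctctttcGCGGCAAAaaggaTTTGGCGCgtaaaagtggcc
PCNA, chr20:5126623-5126772, minus strand: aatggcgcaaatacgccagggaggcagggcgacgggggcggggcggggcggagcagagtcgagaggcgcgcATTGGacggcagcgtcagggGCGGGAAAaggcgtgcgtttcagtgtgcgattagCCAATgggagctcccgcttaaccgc
RRM2, chr2:10122589-10122738, plus strand: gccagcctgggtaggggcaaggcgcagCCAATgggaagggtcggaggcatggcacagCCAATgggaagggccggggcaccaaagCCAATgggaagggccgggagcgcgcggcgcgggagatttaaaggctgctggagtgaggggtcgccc
MKI67, chr10:128126424-128126573, minus strand: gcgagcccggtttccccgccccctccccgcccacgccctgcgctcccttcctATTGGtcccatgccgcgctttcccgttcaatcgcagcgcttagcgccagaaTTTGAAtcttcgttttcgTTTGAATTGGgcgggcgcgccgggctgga
PLK1, chr16:23678739-23678888, plus strand: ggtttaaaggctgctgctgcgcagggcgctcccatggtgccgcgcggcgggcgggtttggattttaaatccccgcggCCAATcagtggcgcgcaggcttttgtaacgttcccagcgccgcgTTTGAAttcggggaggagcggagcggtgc

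The receptors of the HER family changed in different directions. ERBB2, the target of lapatinib, fell from 9136, 8583 and 7917 in DTP to 2103, 1244 and 1534 in DTEP (log2 change -2.42 ± 0.30 (SE), adjusted p = 0.000256), 5.25-fold by the group means, and all DTEP values were also below the Control values of 6389.8, 6356 and 6833. ERBB4, the receptor of neuregulins that carries its own active kinase, rose from 5.58, 6.96 and 8.7 to 29.4, 53.3 and 160.5 (log2 change 3.01 ± 0.54 (SE), adjusted p = 0.00178). NRG3, a neuregulin that binds this receptor, rose from 1.62, 2.91 and 2.59 to 20.05, 27.7 and 42.9 (3.16 ± 0.31). In both genes DTEP replicate 3 was the highest, and the groups did not overlap. ERBB3, which encodes the HER3 partner of HER2, was at 433, 443 and 488 and 471, 511 and 1211 (log2 change 0.55 ± 0.35 (SE), adjusted p = 0.208), with a change of 0.11 without DTEP replicate 3, the library that was clearly above DTP and close to the LR values of 1113, 1028 and 1131. EGFR had 2.66, 2.37 and 4.84 in DTP and 0.478, 0.0824 and 1.35 in DTEP (-1.42 ± 0.32), after 22.4, 18.9 and 19.8 in Control. The ligand AREG measured 7.78, 7.06 and 7.49 and 2.25, 1.94 and 0.954 (-1.67 ± 0.24). EGFR and AREG passed the threshold with edgeR, with DESeq2 and with a pseudocount of 0.1, but not with limma as described. Of 9 tested genes of the family 2 rose and 1 fell (median change -0.93, but 1.78 over the members with a mean level of at least 5), and the neuregulin NRG1 had 0 reads in all 12 libraries.

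Feedback genes of the ERK pathway rose in part. Of 21 tested genes of this list 7 rose and 0 fell (median change 0.82): SPRY4, SPRED1, DUSP6, SPRED2, DUSP5, SPRY1 and DUSP4. DUSP6, a phosphatase that removes the activating phosphates of ERK, had 1.72, 2.67 and 2.65 in DTP and 170.3, 211 and 30.5 in DTEP (log2 change 4.98 ± 0.65 (SE), adjusted p = 0.000358). DTEP replicates 1 and 2 were far above the Control values of 18.4, 20.8 and 17.2, whereas DTEP replicate 3 was close to the LR values of 39.7, 30.2 and 68.2. SPRY4, an inhibitor of receptor signalling to RAS, rose from 0.418, 0.296 and 0.288 to 128, 162 and 52.7 (log2 change 6.29 ± 0.40 (SE), adjusted p = 1.4e-05), the largest change of the list. SPRED1, a relative of the Sprouty genes, went from 0.835, 0.888 and 1.04 to 74.2, 102 and 105 (5.61 ± 0.22). DUSP4, a nuclear ERK phosphatase, went from 37.7, 36.8 and 40.8 to 249.7, 374 and 189.7 (2.73 ± 0.25), which left it below the Control values of 404, 399 and 403. The immediate early factor EGR1 was uneven, at 49.8, 12.6 and 35.9 in DTP and 227, 256 and 13.4 in DTEP, and was not called (log2 change 1.68 ± 1.06 (SE), adjusted p = 0.2). Without DTEP replicate 3 the change of EGR1 was 3.04 and was called. SPRY2 had 1.88, 1.83 and 1.73 and 3.3, 3.58 and 3.42, and MYC 289, 269.6 and 266 and 209.6, 143 and 40.0 (log2 change -1.36 ± 0.53 (SE), adjusted p = 0.0529). In MYC, a growth regulator, no DTEP library reached the DTP range, DTEP replicate 3 was the lowest, and the change was -0.66 without that library. The ERK target ETV4 did not pass the filter because fewer than 3 of the 6 libraries reached 1, with values of at most 0.173 in DTP and of 13.7, 7.54 and 0.393 in DTEP.

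The fall of ERBB2 was shared by its neighbours. Of 21 tested genes listed around ERBB2 on 17q12-q21, where BT474 cells carry the amplification, 14 fell and 1, CDC6, rose (median change -2.98). GRB7, an adaptor next to ERBB2, went from 1448, 1322 and 1131 to 233, 125 and 89.9 (log2 change -3.22 ± 0.33 (SE), adjusted p = 0.000115). STARD3, a cholesterol transporter, went from 958, 857 and 753 to 168, 99.4 and 67 (-3.02 ± 0.31), and MIEN1 from 794, 759 and 578 to 157, 73.6 and 23.7 (-3.41 ± 0.58). DTEP replicate 3 was the lowest library in all of these, and GRB7 had 91.5, 113 and 158 in LR. PGAP3 fell from 1735, 1535 and 1259 to 159, 75.9 and 41.5 (log2 change -4.22 ± 0.43 (SE), adjusted p = 0.000111), STAC2 from 177, 159 and 138 to 9.81, 3.79 and 0.561 (-5.19 ± 0.60) and IKZF3, a lymphoid transcription factor, from 252, 263 and 282 to 32.5, 12.5 and 1.85 (-4.61 ± 0.75). RPL19 and RPL23, ribosomal protein genes of the same stretch, had the highest and the third highest normalised read count of DTP, not corrected for transcript length. RPL19 fell from 13443, 12518 and 9597 to 2079, 947 and 652 (-3.43 ± 0.44). RPL23 fell from 7889, 8294 and 6438 to 1274, 498 and 359 (-3.62 ± 0.45), and reads of ribosomal protein genes can be split with pseudogene copies. The kinase gene CDK12 had 257, 306 and 478 in DTP and 127, 162 and 145 in DTEP and was not called (log2 change -1.21 ± 0.25 (SE), adjusted p = 0.00329). In LR against Control 17 of the 21 genes were lower by the same rule, among them all 14 that fell here. No library is shared with that comparison, but LR came from the same line under the same drug and is not independent of DTEP.

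A scan of 12620 windows of 25 neighbouring tested genes placed this stretch lowest. The window at chr17:38752741-39918635 (GRCh38.p14, from PSMB3 to GSDMB) had a median change of -3.22 and 21 of its 25 genes fell. The 1st and 99th percentiles of all windows were -1.39 and 1.6. The next separate low windows were at chr20:50794894-57409333, with a median of -2.07 and 13 of 25 genes lower, and at chr20:33702758-35519280, with -1.88, 10 lower and 2 higher, one of them PXMP4. The first of these holds the transcription factor gene TFAP2C, which fell from 302, 315 and 338 to 104, 66.2 and 60.9 (-2.07 ± 0.22, and under the threshold without DTEP replicate 2 or 3), and AURKA. The highest window was chrX:154379295-155239841 from EMD to VBP1, with a median of 2.04, 14 genes higher and 0 lower. In it LAGE3, a subunit of a tRNA-modifying complex, rose from 7.83, 7.5 and 3.97 to 214, 176 and 97.7 (log2 change 4.43 ± 0.35 (SE), adjusted p = 3.64e-05), VBP1, a subunit of the prefoldin chaperone, from 26, 30.5 and 37 to 388, 389.6 and 253 (3.41 ± 0.23), and UBL4A from 49.7, 48.6 and 41.5 to 497, 478 and 318 (3.16 ± 0.21). The median change in LR against Control was -3.02 in the lowest window and 1.99 in the highest. By whole chromosome the medians ran from -0.68 on chromosome 7, with 64 of 639 genes lower and 22 higher, to 0.66 on chromosome 22. DNA copy number was not measured in these files, and its part in these windows was not tested.

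**Figure D3:**
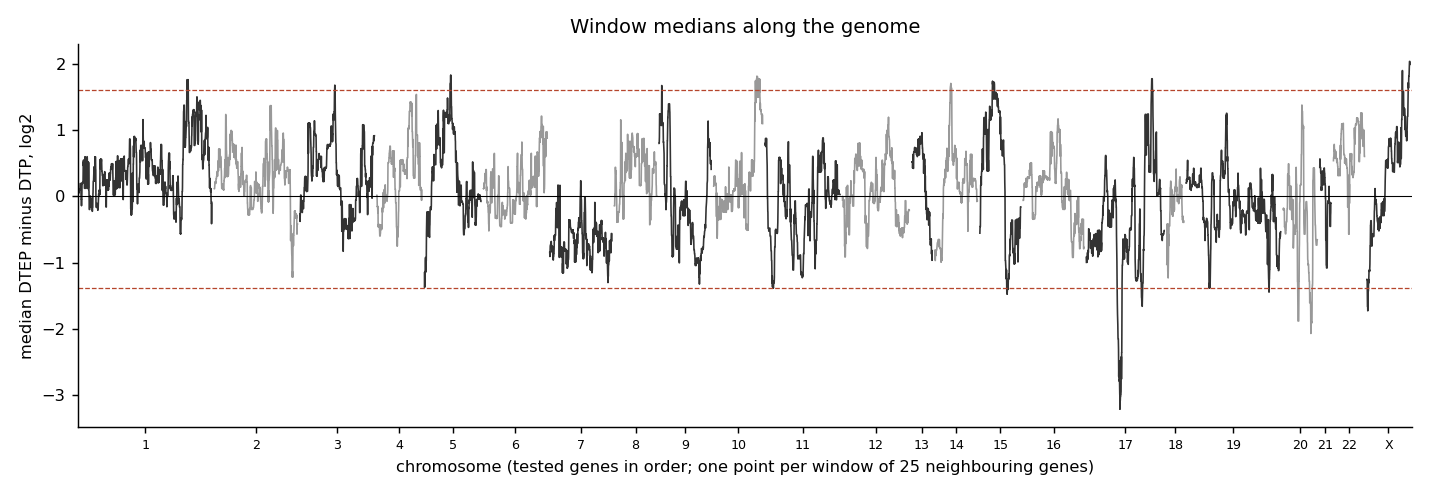
Median change (DTEP minus DTP, log2, vertical axis) in each window of 25 neighbouring tested genes, in gene order along chromosomes 1 to 22 and X (horizontal axis, shades alternate by chromosome). Red dashed lines are the 1st and 99th percentiles of the windows, -1.39 and 1.6. The deepest trough, on chromosome 17, holds ERBB2, and the highest peak is at the end of the X chromosome.

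Estrogen response genes fell more often than they rose. Of 27 tested genes of the estrogen list 14 fell and 2 rose (median change -2.36). ESR1, the estrogen receptor, had 93.5, 101 and 122 in DTP and 16.7, 6.88 and 0.842 in DTEP (log2 change -4.05 ± 0.70 (SE), adjusted p = 0.00146). PGR, the progesterone receptor and a classical ESR1 target, had 740.0, 858 and 1130.4 and 147, 60.4 and 11.8 (log2 change -4.20 ± 0.76 (SE), adjusted p = 0.00177). In both genes the DTEP libraries came in the order 1, 2, 3 from high to low, and LR libraries were lower still, at 0.211, 0.0553 and 0.194 for ESR1. GREB1, an ESR1 cofactor, fell from 456, 456 and 557 to 61.8, 26 and 4.38 (-4.55 ± 0.75), the largest fall of the list, and TFF1, a secreted trefoil peptide, from 337, 312 and 217 to 49.5, 14.1 and 2.25 (-4.39 ± 0.84). XBP1, which also acts in the unfolded protein response, was one of the 2 that rose, from 905, 917 and 932 to 4481, 4152 and 3819.8 (log2 change 2.17 ± 0.21 (SE), adjusted p = 9.53e-05). The full-length estrogen response element was in none of the 19 promoters of the list in the window searched, and in 12 of all 27305. At this rarity most sets of 19 promoters would hold none, so its absence is no result about the list. Of the 14 genes that fell, 12 were also lower in LR than in Control.

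Luminal transcription factors split in direction. Of 30 tested genes of the lineage list 6 rose and 7 fell, with a median of -0.02 whose sign changed when DTP replicate 3, DTEP replicate 1 or DTEP replicate 2 was left out. TFAP2B, a factor of the AP-2 family, had the largest change of all genes tested: it was at 0 reads in all DTP libraries and at 552, 673 and 931 in DTEP (log2 change 9.46 ± 0.23 (SE), adjusted p = 7.32e-07), at least 4163-fold higher than the level 3 reads would give in a DTP library. NR2F1, an orphan nuclear receptor, was at 0 reads in DTP and at 212, 250.1 and 229.9 in DTEP (7.85 ± 0.19, at least 1336-fold higher). The highest value of both in a Control library was 0.217. Both genes passed the filter only through their DTEP levels and could only rise, so the p-value of TFAP2B is no separate support. TRPS1, a GATA-like repressor of luminal cells, rose from 93, 108 and 139 to 599, 1241 and 1491 (3.20 ± 0.34). GATA3 and FOXA1 were not called: GATA3 measured 450.4, 461 and 451 and then 943, 1311 and 1225 (1.34 ± 0.20), and FOXA1 256, 269 and 307 and 575, 660.2 and 958 (1.36 ± 0.23). TFAP2A, another AP-2 gene, had 60.1, 61.9 and 74.8 and 214, 283 and 204 (1.81 ± 0.19). ID3, an inhibitor of helix-loop-helix factors and a target of BMP signals, fell from 343, 286 and 228 to 26.9, 42.6 and 2.41 (log2 change -4.14 ± 0.82 (SE), adjusted p = 0.00295), and ID1 from 171, 116 and 107 to 14.3, 39 and 2.25 (-3.36 ± 0.78).

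Genes of the apocrine state moved both ways: of 22 tested 6 rose and 7 fell (median -1.27). CLCA2, a membrane protein of apocrine and stratified epithelium, rose from 1.36, 0.592 and 1.67 to 1264, 1162 and 2195 (log2 change 9.42 ± 0.30 (SE), adjusted p = 1.3e-06), against 58, 63.6 and 59.9 in Control. AZGP1, a secreted zinc glycoprotein, rose from 0.261, 0.148 and 0.115 to 440.4, 296 and 342 (log2 change 8.24 ± 0.22 (SE), adjusted p = 8.98e-07). FKBP5, a cochaperone of steroid receptors, was at 0 reads in DTP and at 70.1, 81.6 and 63.8 in DTEP (at least 416-fold higher). FKBP5 likewise passed the filter only through DTEP and could only rise. The prolactin-induced protein PIP had 1.15, 1.14 and 0.864 and 4.26, 8.69 and 3.26 (1.55 ± 0.30), which passed the threshold with edgeR, with DESeq2 and with a pseudocount of 0.1 but not with limma as described. ALOX15B, a lipoxygenase, fell from 29.2, 31.4 and 27.9 to 0.287, 1.52 and 0.505 (-4.17 ± 0.28), and DHRS2, a dehydrogenase, from 574, 542 and 468 to 118, 35.9 and 5.44 (-4.11 ± 0.88).

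Among secretory and structural genes of the epithelium more fell than rose. Among 7 tested mucin and secretory genes 4 fell and 0 rose (median -2.94). MUC6, a gel-forming mucin, had the most negative change of all genes with non-overlapping libraries, from 151, 135 and 154 to 3.92, 2.51 and 0.617 (log2 change -5.60 ± 0.38 (SE), adjusted p = 1.98e-05). MUC1, a membrane mucin, went from 35.4, 30.1 and 26.9 to 4.64, 1.77 and 3.42 (-2.94 ± 0.30) and CEACAM6, an adhesion protein, from 22.9, 27.1 and 27.9 to 1.34, 0.535 and 0 (-4.13 ± 0.32). AGR2, which folds mucins, had 155, 160.1 and 145 and 383, 137 and 137 (0.33 ± 0.38), with DTEP replicate 1 alone above DTP. Of 11 keratins 4 fell and 1, KRT23, rose (median -1.48). KRT8, a defining luminal keratin, fell from 1692, 1522 and 1226 to 517, 286 and 269 (log2 change -2.10 ± 0.29 (SE), adjusted p = 0.000441), and was under the threshold when DTP replicate 1, DTEP replicate 2 or DTEP replicate 3 was left out. Its partner KRT18 had 1271, 1192 and 995 and 731, 489.6 and 368 (-1.17 ± 0.27), and KRT15 fell from 172, 163 and 141 to 25.3, 10.2 and 0.561 (-4.36 ± 0.87).

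Of 23 tested genes of junctions and of the epithelial-mesenchymal transition 7 fell and 0 rose (median -0.98). CDH1, the adhesion protein E-cadherin, fell from 661, 716 and 852 to 149.99, 89 and 88.9 (log2 change -2.79 ± 0.24 (SE), adjusted p = 5.51e-05). VIM, the mesenchymal filament vimentin, fell as well, from 84.3, 97.9 and 88.2 to 10.7, 3.67 and 0.112 (log2 change -4.53 ± 0.72 (SE), adjusted p = 0.000964), and TWIST1, a factor that represses E-cadherin, had a change of -4.17. EPCAM, an epithelial adhesion protein, measured 133, 144 and 153 and 362, 363 and 266 and ESRP1, a splicing factor of epithelial cells, 137, 169.5 and 199 and 345, 409.9 and 419. Their changes of 1.19 and 1.22 did not reach the size threshold, although the groups did not overlap. FN1 was low in both groups, at 2.3, 3.06 and 4.61 and 1.48, 1.07 and 0.112. In the matrix list of 31 genes 3 rose, the integrin subunits ITGA6, ITGA2 and ITGAV, and 8 fell (median -0.26). ITGA6, a laminin receptor subunit, rose from 8.19, 10.3 and 14.7 to 271, 414 and 365 (log2 change 4.88 ± 0.25 (SE), adjusted p = 5.91e-06), ITGA2, a collagen receptor subunit, from 4.49, 5.43 and 9.21 to 43.9, 51.7 and 133 (3.26 ± 0.43). COL12A1, a fibril-associated collagen, fell from 704, 768 and 1077 to 122, 66.9 and 11.2 (-4.16 ± 0.74), and the transcription factor TEAD1 had a change of -3.60 ± 0.59.

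Lipid synthesis and glycolysis rose in part. Of 30 sterol and fatty acid synthesis genes 5 rose and 2 fell (median 0.92). SCD, which introduces the double bond of oleate, rose from 27.9, 27.8 and 32.4 to 1179, 855 and 288 (log2 change 4.45 ± 0.46 (SE), adjusted p = 0.000117), and its Control values were 979, 1031 and 1005. SREBF1, the regulator of lipogenic genes, rose from 31.3, 26.4 and 20.7 to 463, 377 and 282 (3.78 ± 0.24), and FASN, the fatty acid synthase, from 225, 190.4 and 201 to 639, 1323 and 684 (2.02 ± 0.29). FASN was just past the threshold and was not called with median-of-ratios scaling or without DTP replicate 2 or DTEP replicate 2. FADS2, a desaturase, fell from 178, 171 and 164 to 29.3, 12.4 and 8.81 (-3.44 ± 0.38), after 748, 765 and 796 in Control. Without DTEP replicate 3 the number of genes of this list called higher was 8.

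Of 30 glycolysis and hypoxia genes 7 rose and 1 fell (median 0.85), and 9 rose without DTEP replicate 3. HK2, the hexokinase of growing cells, rose from 38.1, 45.9 and 50.2 to 222, 238 and 213 (log2 change 2.31 ± 0.17 (SE), adjusted p = 2.52e-05), and LDHA, which makes lactate, from 213, 222 and 227 to 1831, 1159 and 534 (2.24 ± 0.40), a change that was under the threshold without DTEP replicate 1. EGLN3, a prolyl hydroxylase induced by hypoxia, rose from 13.3, 17.4 and 13.6 to 391, 298 and 81.6 (3.77 ± 0.52). VEGFA, an angiogenic factor, had 78.3, 79.5 and 89.7 and 365, 349.6 and 272, just under the threshold (1.97 ± 0.17), and was called without DTEP replicate 3 (2.10) or without DTP replicate 3. SLC2A1, the glucose transporter GLUT1, was lower in every DTEP library, with 301, 292 and 265 and 137, 88.9 and 40.4 (-1.84 ± 0.39, not called, but -2.23 and called without DTEP replicate 1), and ADM, a vasoactive peptide induced by hypoxia, fell, with a change of -2.76 ± 0.33. The hypoxia marker CA9 had 0 reads in DTP and 29.95, 10.4 and 0.505 in DTEP, and did not pass the filter.

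Few genes of the growth machinery were called. Of 32 genes of MYC and ribosome biogenesis 0 were called by limma, edgeR or DESeq2 (median 0.25; 8 had an unadjusted limma p below 0.05; without DTEP replicate 3 the median was 0.64 and 1 gene, DKC1, was higher), of 71 cytosolic ribosomal proteins 2 rose and 3 fell (median -0.22) and of 43 subunits of oxidative phosphorylation 1 rose and 1 fell (median 0.17). NCL, the nucleolar protein nucleolin, had 1148, 1185 and 1199 and 1259, 1065 and 484 (log2 change -0.44 ± 0.35 (SE), adjusted p = 0.303), and NOP56, a nucleolar protein of rRNA processing, 314, 325 and 287 and 418, 347 and 134 (-0.20 ± 0.39). Without DTEP replicate 3 these changes were -0.02 and 0.30. In both, DTEP replicate 3 was far below the other DTEP libraries and near the LR values of 449, 435 and 568 for NCL. RPS28 rose from 2.77, 2.52 and 2.19 to 74.7, 49.2 and 49.8 (4.05 ± 0.24), and its reads can be split with near-identical copies. NDUFS1, a core subunit of complex I, rose from 43.3, 43.9 and 48.8 to 225, 265 and 222 (log2 change 2.36 ± 0.16 (SE), adjusted p = 1.79e-05). ATP5G1, a subunit of the ATP synthase, fell from 387, 389 and 293 to 161, 80.0 and 37.3 (-2.16 ± 0.46), and was not called without DTEP replicate 3. Among 29 genes of fatty acid oxidation and ketone synthesis 2 rose and 5 fell (median -0.02). PPARA, the receptor that induces this pathway, rose from 1.72, 2.62 and 2.99 to 17.8, 22.3 and 64 (3.17 ± 0.45), while ACAA2, its last mitochondrial enzyme, fell from 46.3, 47.2 and 43.9 to 9.52, 3.91 and 1.07 (-3.30 ± 0.52).

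Calls in the FOXO and stress lists differed in direction from list to list. Over all genes tested 8.44% were called higher and 7.31% lower. Of 28 FOXO and PI3K-repressed genes 1, TRIB2, rose and 2 fell (median -0.01). PIK3IP1, an inhibitor of PI3K, fell from 205, 189.7 and 181 to 40.4, 18.1 and 36.8 (log2 change -2.63 ± 0.29 (SE), adjusted p = 0.00016), near its Control values of 24.7, 23.4 and 26.5. IRS2, an adaptor of insulin receptors, fell from 14.4, 15.8 and 18.4 to 2.54, 1.69 and 0.337 (-2.88 ± 0.35), and FOXO3 had 78.4, 92.2 and 131 and 50.6, 59.4 and 95.6 (-0.56 ± 0.28). Of 15 BCL2 family genes 3 fell and 0 rose (median -0.49). BMF, a pro-death BH3-only gene, fell from 214, 212 and 222 to 26.1, 16 and 23.1 (log2 change -3.28 ± 0.21 (SE), adjusted p = 1.38e-05), against 37.4, 36.4 and 39.6 in Control. BCL2, a survival gene regulated by ESR1, fell from 43.1, 46.2 and 56.4 to 12.2, 10.6 and 7.58 (-2.17 ± 0.23, and just under the threshold without DTEP replicate 3), and BCL2L11, which encodes BIM, had 72.3, 73.3 and 89.1 and 84.4, 68.7 and 202 (0.43 ± 0.37, and -0.03 without DTEP replicate 3). DDIT3, the stress factor CHOP, fell from 156, 157 and 131 to 32.5, 22.7 and 18.1 (-2.58 ± 0.23), and PSAT1, an enzyme of serine synthesis induced by ATF4, from 57.4, 65.2 and 73.9 to 3.92, 0.741 and 0.898 (-4.71 ± 0.40). ATF4 itself had 558, 538 and 473 and 559.5, 463 and 565 (0.01 ± 0.18). Of 32 genes of these stress responses 3 rose and 2 fell (median 0.16), of 36 lysosome and autophagy genes 4 fell and 0 rose (median -0.44), and of 30 redox genes 1 rose and 4 fell (median 0.15). GABARAPL1, an autophagy gene induced by FOXO factors, fell from 130.3, 136 and 134 to 16.8, 6.47 and 0.954 (-4.40 ± 0.68), and GSTM3, a glutathione transferase, from 59, 60.1 and 49.5 to 5.5, 0.824 and 0.281 (-4.52 ± 0.54).

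Immune-related genes had no common direction. Of 25 interferon-stimulated genes 4 rose and 4 fell (median 0.11, of the opposite sign without DTP replicate 3 or DTEP replicate 3). BST2, the virus-tethering protein tetherin, rose from 0.0522, 0.0494 and 0 to 282, 242 and 154 (log2 change 7.73 ± 0.26 (SE), adjusted p = 1.59e-06), and OAS3, an RNA-sensing enzyme, from 1.04, 1.18 and 1.38 to 30.1, 45.7 and 51 (4.26 ± 0.25). MX2, an antiviral GTPase, fell from 49.4, 51.8 and 51 to 3.97, 1.65 and 0.393 (-4.29 ± 0.42). IFIT1, an interferon-induced RNA-binding protein, had 0.626, 0.691 and 0.806 and 1.053, 1.32 and 3.14, far below its LR values of 306, 84.5 and 30.7. The 18 genes of class I presentation had a median change of -0.22. B2M, the common light chain of class I molecules, had 113, 122 and 112 and 331, 380.3 and 296 (1.52 ± 0.16). Of 12 cytokine and acute phase genes 2 rose and 5 fell (median -1.52). CXCL14, an epithelial chemokine, fell from 158, 159 and 126 to 6.75, 2.68 and 0.281 (log2 change -5.48 ± 0.57 (SE), adjusted p = 0.00012), and CXCL12, the ligand of CXCR4, from 24.7, 27.2 and 30.2 to 1.39, 0.577 and 0 (-4.19 ± 0.32), whereas CCL28, a mucosal chemokine, rose from 0.626, 0.395 and 1.15 to 29.6, 38.4 and 47.9 (4.52 ± 0.27).

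Among placental and adhesion glycoproteins and targets of the aryl hydrocarbon receptor more genes fell than rose. Of 6 tested alkaline phosphatase, PSG and CEACAM genes 4 fell and 0 rose (median -3.61). ALPP, the placental alkaline phosphatase, went from 90.3, 83.2 and 72.7 in DTP to 20.9, 5.81 and 0.337 in DTEP (log2 change -3.83 ± 0.85 (SE), adjusted p = 0.00504), and had 0.46, 0.217 and 0.559 in Control. PSG4, a pregnancy-specific glycoprotein with near-identical relatives, went from 57.4, 61.2 and 64.1 to 12.3, 6.3 and 0.337 (-3.61 ± 0.73). CYP1A1, an enzyme induced by this receptor, fell from 504, 463 and 503 to 79.8, 56.8 and 1.18 (log2 change -4.50 ± 1.19 (SE), adjusted p = 0.0113), with Control at 7.36, 6.41 and 7.13 and a change of -2.84 without DTEP replicate 3, while CYP1B1, another target, rose from 4.23, 3.8 and 8.06 to 67.1, 100.5 and 65.6 (3.66 ± 0.31). Among 10 tested genes of this receptor 1 rose and 3 fell (median -0.70), and in the IGF system 1 of 11 genes rose and 4 fell (median -0.70). IGFBP3, a binding protein of insulin-like growth factors, fell from 1373, 1465 and 1514 to 429, 127 and 8.64 (log2 change -4.16 ± 1.15 (SE), adjusted p = 0.0142, and a change of -2.63 without DTEP replicate 3), and IGF1R, the receptor, had 162, 172 and 225 and 56.6, 62.7 and 100.1 (-1.37 ± 0.25). IGFBP5, which had the highest mean normalised read count of DTEP, measured 5843, 6007 and 7146 and 4160.2, 5673 and 18971 (log2 change 0.28 ± 0.56 (SE), adjusted p = 0.688), and its change had the opposite sign without DTEP replicate 3. Of 15 stem-like and tolerance markers 1 rose and 3 fell (median -1.07), among them CD44, a hyaluronan receptor, from 29.5, 31.7 and 37.6 to 9.76, 4.94 and 0.281 (-2.96 ± 0.68), and ALDH1A1, an aldehyde dehydrogenase, from 17.6, 16.4 and 19.1 to 3.64, 1.24 and 0.225 (-3.0 ± 0.44). Of 41 enzymes of chromatin methylation and acetylation 2 rose and 1 fell (median 0.57). EZH2, the methyltransferase of the Polycomb complex PRC2, had 50.9, 54 and 50.0 and 76.1, 75.4 and 62.2 (0.45 ± 0.16), and its relative EZH1 fell from 116, 119.5 and 119 to 30.0, 21.4 and 35.9 (-2.02 ± 0.21), which was under the threshold without DTEP replicate 2.

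**Figure D4:**
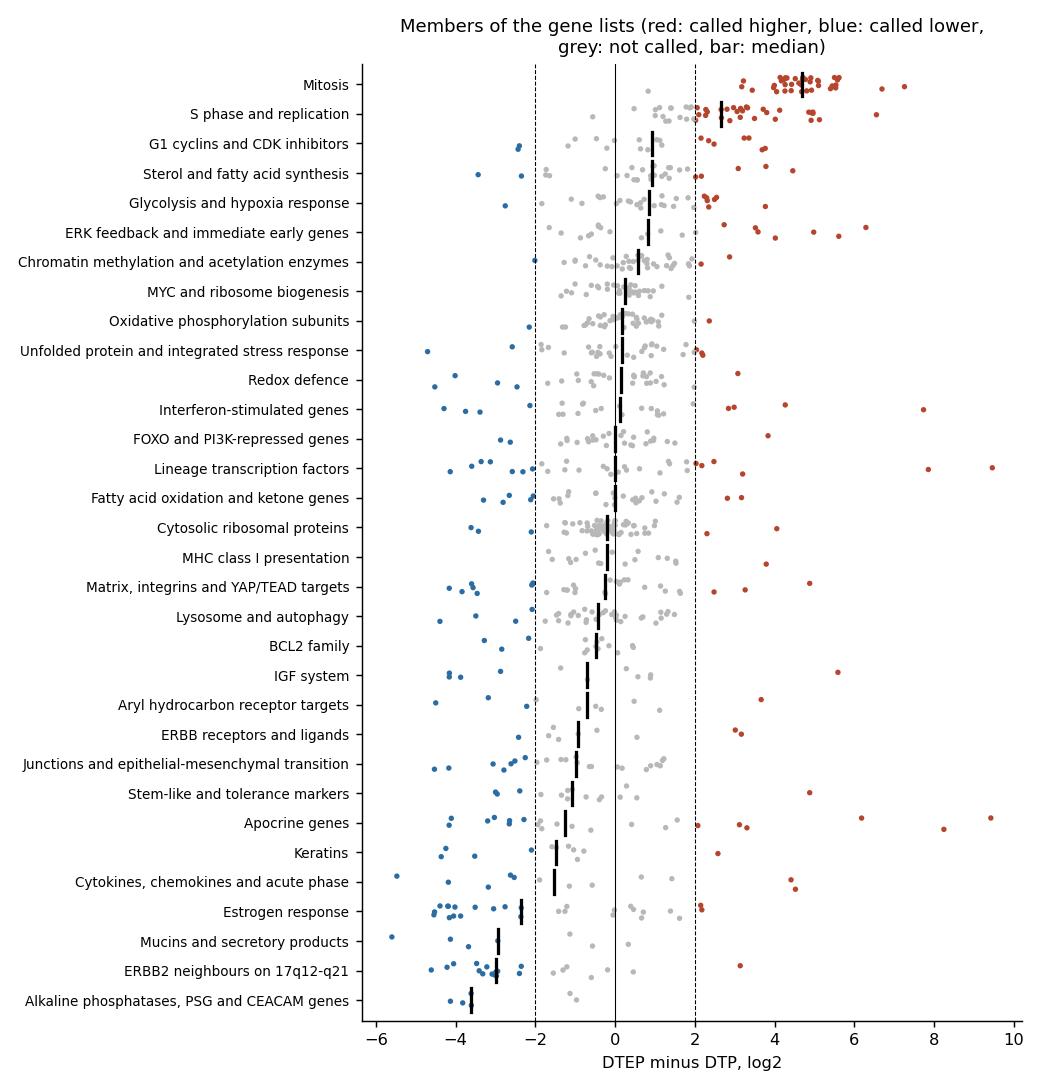
Change of each tested member (DTEP minus DTP, log2, horizontal axis) of the 32 gene lists (vertical axis, ordered by median). Red points were called higher, blue points called lower and grey points not called; bars are medians and dashed lines the threshold of 2. The mitosis list lies to the right of the threshold except for AURKA, and the genes around ERBB2 lie mostly to the left of -2.

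The 10 largest changes among genes whose libraries did not overlap were those of TFAP2B, CLCA2, AZGP1, XIST, SLFN13, KCNMA1, NR2F1, PXMP4, BST2 and NES. SLFN13, a tRNA-cleaving Schlafen protein, was at 0 reads in DTP and at 166, 215 and 392 in DTEP (at least 1492-fold higher). NES, the filament protein nestin, was at 0 reads and then at 329, 273 and 94.6 (at least 1344-fold higher). PXMP4, a peroxisomal membrane protein, had 1 read in 1 DTP library and 224, 215 and 249 in DTEP (7.82 ± 0.19). KCNMA1, a potassium channel, measured 22.2, 22.2 and 23 in Control, 0.887, 1.63 and 1.55 in DTP and 309, 622 and 915 in DTEP (log2 change 7.91 ± 0.38 (SE), adjusted p = 4.44e-06). In all, 65 tested genes had 0 reads in every DTP library, 55 of them were called higher, and 35 of the 65 had 0 reads in every Control library too. These 65, among them TFAP2B, NR2F1, FKBP5, SLFN13 and NES, passed the filter only through their DTEP levels and could only rise. The count of 55 and the p-values of these genes are therefore no results of their own. At the other end stood MUC6, CXCL14, PLEKHG4B, HOXB13, STAC2, TCN1, FGD3, H2AFY2, RAI2 and MDK. TCN1, a vitamin B12 binding protein, was among the 10 genes with the highest read counts of DTP and fell from 2612, 2848 and 2629 to 452, 119 and 6.74 (log2 change -5.17 ± 1.23 (SE), adjusted p = 0.00713). HOXB13, a homeobox factor, fell from 67.3, 67.7 and 58.7 to 2.97, 0.371 and 0 (-5.22 ± 0.47), and MDK, the growth factor midkine, from 211, 168 and 128 to 10.1, 3.25 and 2.02 (-4.99 ± 0.46).

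The DTEP libraries did not share the size of these falls. DTEP replicate 3 was the lowest of its group in 799 of the 969 genes that fell (82.5%), and the median difference from the DTP mean over these genes was -2.22, -2.86 and -3.26 for DTEP replicates 1, 2 and 3. Among the 1119 genes that rose it was the highest in 504 (45%) and the lowest in 419 (37.4%), and the medians were 2.73, 2.97 and 3.03. The same shares were not counted over all genes tested, so whether they are particular to called genes was not tested. The range among the 3 DTEP libraries exceeded 2 on the log2 scale in 461 tested genes, against 1 gene among the DTP libraries. A set of genes chosen after these values were seen shows the same order. In 176 genes every LR library had 3 reads or fewer and every DTP library 10 or more normalised read counts. The median level of these genes, as a percentage of the DTP mean, was 11.7 in DTEP replicate 1 (quartiles 8.75 and 15.0), 4.40 in DTEP replicate 2 (3.01 and 6.10) and 0.401 in DTEP replicate 3 (0.114 and 0.756). All 176 were called lower, which the choice by DTP and LR levels made likely and which is no separate result. Of the 176, 130 were at 10 or more in every Control library. In 52 genes, conversely, every DTP library had 3 reads or fewer and every LR library 10 or more. Their medians as a percentage of the LR mean were 79.9, 85.1 and 105 in DTEP replicates 1, 2 and 3. Of the 52, 34 had 3 reads or fewer in every Control library as well. These 52 genes passed the filter only through their DTEP levels. In bulk RNA, fewer cells that express a gene and less RNA per cell cannot be told apart, here as in all results above.

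**Figure D5:**
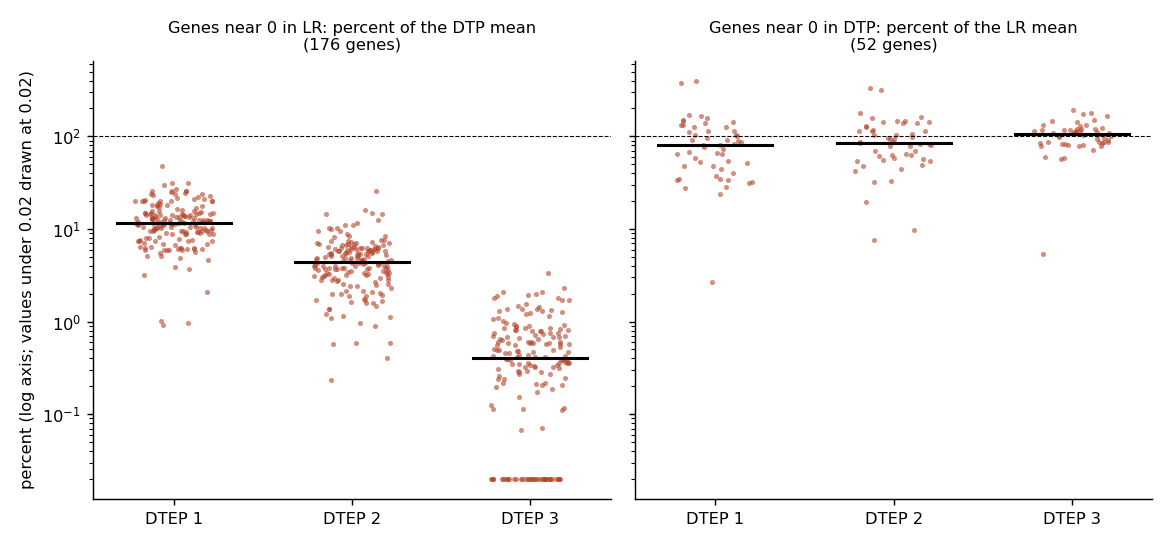
Levels in the 3 DTEP libraries (horizontal axis) as a percentage of the DTP mean for the 176 genes near 0 in LR (left) and of the LR mean for the 52 genes near 0 in DTP (right; vertical axis in percent, log scale, values under 0.02 drawn at 0.02, the black bar is the median and the dashed line 100 percent). On the left the medians step down from 11.7 to 4.40 and 0.401 percent, and on the right they lie between 79.9 and 105 percent.

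The called genes were read again in LR against Control, a comparison made of the other 6 libraries. By the same rule 676 of the 13263 genes (5.1%) were higher and 1012 (7.63%) lower in LR. Of the 1119 genes higher in DTEP 456 (40.8%) were higher in LR, 19 (1.7%) were lower, and the median change was 1.56. Of the 969 genes lower in DTEP 659 (68%) were lower in LR, 2 (0.206%) were higher, and the median was -2.78. Of the 11175 genes not called 1.95% were higher and 2.99% lower in LR. The gene groups differed in this respect. Of the 38 mitosis and 29 S phase genes that rose in DTEP, 0 were higher in LR than in Control and, over the whole lists, 4 and 9 genes were lower. Of the 7 ERK feedback genes that rose 5 were higher in LR, of the 14 genes around ERBB2 that fell 14 were lower, and of the 7 junction genes that fell 7 were lower. FGFR4, a receptor of fibroblast growth factors named here after its values were seen because it was among the 10 genes with the highest read counts of DTEP, had 128, 119.8 and 141 in Control, 52.8, 43.6 and 31.8 in DTP, 2059.7, 2541 and 2649 in DTEP and 2341, 3065 and 1559 in LR (log2 change 5.81 ± 0.22 (SE), adjusted p = 2.12e-06 for DTEP against DTP). PEG10, a gene derived from a retrotransposon and named for the same reason, had 121, 122 and 113, 27.3, 31.8 and 38.2, 2416, 2402 and 3207 and 3922, 1799.6 and 4869 in the same order of groups (log2 change 6.32 ± 0.20 (SE), adjusted p = 1.3e-06).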

How the data were processed

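RNA from the 12 libraries was sequenced by the study from a stranded mRNA kit. According to the study, the authors aligned reads to hg38 and counted them per RefSeq gene with Rsubread under default settings, which use no strand, so overlapping and antisense genes can share reads. The deposited signal values are read counts divided by the library total and a TMM factor by the authors (edgeR CPM). All 199680 values above 0 tested were whole multiples of the value of 1 read (within 1e-06), which recovered the counts and totals: 16383363 to 25030482 reads in DTP and DTEP.

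Genes with a value of 1 or more in at least 3 of the 6 DTP and DTEP libraries were tested on log2(value + 1) with limma 3.58.1 in R 4.3.3, with a trend in the prior variance, and adjusted after Benjamini-Hochberg over all 13263 genes. Because the deposited values are not counts, edgeR 4.0.16 and DESeq2 1.42.0 were run on the recovered reads as alternatives only. The other alternatives were pseudocounts of 0.5 and 0.1, no filter, a mean of at least 5, no trend, all 12 libraries in 1 fit, weights by group, median-of-ratios scaling, a replicate block, a change above 1 and leaving out each library. On simulated counts 195 of 200 genes changed 8-fold were recovered, with 0 false calls among the 13068 genes simulated. An 8-fold change lies past the size threshold, so recovery of changes near the threshold was not tested. Named genes were the 10 largest and the 10 smallest changes, anchor genes of each list chosen for their role, the extremes of each list, and the 3 largest changes of the highest and lowest windows. CDK12, DHRS2, DUSP4, ERBB4, FKBP5, ID1, OAS3, RPL19, SPRED1, TEAD1, TP63, TRPS1 and TWIST1 were named after their values were seen. Members and lists were chosen with earlier results of these data known. Gene positions and promoters came from the RefSeq annotation of GRCh38.p14. Limits from 3 reads cover counting error only, while the SE came from the spread between libraries. Some list members are not reported here.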

Additional observations from a re-analysis of the deposited data

How the results depend on the processing

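The counts of called genes depended most on the treatment of low levels and on the size threshold. With a pseudocount of 0.1 the genes lower in DTEP numbered 1583 in place of 969, with edgeR on the recovered reads 1604 and with DESeq2 1648, of which 968, 962 and 963 were among the 969. The genes higher in DTEP then numbered 1383, 1422 and 1371. With a change above 1 in place of 2, 3017 genes rose and 2678 fell. Fits that each left out 1 library called 1062 to 1245 rises and 855 to 1097 falls for DTEP against DTP, and 656 to 691 rises and 964 to 1087 falls for LR against Control.

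Whether replicate numbers pair the libraries could not be decided. The deviations of same-numbered DTP and DTEP libraries from their group means correlated at 0.37, -0.01 and 0.34. DTP replicates 1 and 3 correlated best with the DTEP library of the same number, and DTP replicate 2 with DTEP replicate 1. Deviations within a group of 3 sum to 0, so these correlations depend on each other. With the replicate block the month 6 comparison had 1121 rises and 969 falls, and that of LR with Control 676 and 1012.

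Of 3097 values of named genes under alternatives 3034 kept their direction and side of the threshold, 22 lost the call, 28 gained it and 13 changed sign. All sign changes were in genes that were not called. ATF4 changed by -0.045 with median-of-ratios scaling, -0.020 with edgeR and -0.068 with DESeq2. Over fits that left out 1 library, the change ran from -0.056 to 0.11 in ATF4, from -0.032 to 0.74 in BCL2L11, from -0.16 to 0.58 in AGR2, from -0.38 to 0.72 in IGFBP5, from -0.085 to 0.30 in IFI6, from -0.51 to 0.30 in NOP56, from -0.63 to 0.48 in CTGF and from -1.51 to 0.21 in HMOX1. KRT23, at 1.92, and SDF2L1, at 1.91, lost their calls when DTEP replicate 1 was left out. Of the 544 list medians under alternatives 1 changed sign with a large shift. It was that of the HER receptors and ligands, at 1.78 with a mean of at least 5. The medians of the lineage, interferon, FOXO, fatty acid oxidation, oxidative phosphorylation and redox lists lay near 0 and changed sign under some alternatives.

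Parallel plates of 1 derivation limit the spread that was measured. Low genes are limited by the value of 3 reads, and their change is understated on this scale.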
